A study of Mus musculus with 6 samples.

Results

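MHC class II presentation was followed through 9 genes, taken from a fixed list of names: the peptide-binding chains H2-Aa, H2-Ab1 and H2-Eb1, the invariant chain Cd74, the peptide editor subunits H2-DMa and H2-DMb2, the editor's inhibitor subunits H2-Oa and H2-Ob, and the co-activator Ciita. A gene was measured if the platform annotation gave a table entry to that gene alone. On that rule 5 of the 9 were measured (H2-Aa, H2-Ab1, Cd74, H2-DMa and H2-Oa), among 14860 genes in all. The annotation gave H2-Eb1 an entry jointly with H2-Eb2, and H2-DMb2 an entry jointly with H2-DMb1. The Ciita entry carried a further symbol that the gene table lists as an older name of Ciita. For H2-Ob no entry was used here.

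RNA came from splenocytes that bead selection had enriched for Sca-1, a surface protein of primitive blood cells that lymphocytes can also carry, and each mouse had 1 Affymetrix exon array. The 6 animals, FVB/N mice that all carried the NRASD12 and BCL-2 transgenes, model acute myeloid leukaemia (AML). Their ages and the promoters of the transgenes were not in the sources used here. The 3 control mice were untreated per the series description, and the 3 treated mice had received ABT-737, an inhibitor of BCL-2, BCL-XL and BCL-W, at 75 mg/kg, with 3 doses each week for 33 days. The comparison asked which genes differ in these cells after ABT-737.

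Class II molecules display peptides from the endosome to helper T cells. An alpha and a beta chain assemble with the invariant chain, which blocks the groove until endosomal proteases degrade it, and the H2-DM heterodimer then exchanges its last fragment for other peptides. The H2-O heterodimer, found mainly in B cells, restrains H2-DM. B cells, dendritic cells and activated macrophages express the genes of these chains, through factors that sit on promoter boxes and recruit the co-activator CIITA.

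The promoter boxes are shown first because they can be described apart from the arrays. RefSeq promoters of build GRCm38.p6, from 250 bases before to 50 after each annotated start, were available for 6 of the 9 genes. They are from the reference strain C57BL/6J, not from FVB/N, and these loci are polymorphic. The search took the letters GCAAC, a core of the X box bound by the RFX complex, followed on the same strand by ATTGG, a core of the Y box bound by NF-Y, with 20 to 40 bases between them, on either strand. The pair was in 332 of 32851 promoters (1.01%), and GCAAC and ATTGG alone were in 35.2% and 37.4%. Of the 6 genes with a promoter, 4 held the pair (H2-Aa, H2-Oa, H2-Ob and H2-Eb1), and so did H2-Eb2. Windows from 10 bases before the pair are given 5′ to 3′ on the strand of the gene, with both cores in capitals.
H2-Aa, chr17:34287857-34287914, minus strand: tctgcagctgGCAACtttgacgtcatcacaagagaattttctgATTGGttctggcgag
H2-Oa, chr17:34092293-34092350, plus strand: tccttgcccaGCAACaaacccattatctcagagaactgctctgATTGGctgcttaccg
H2-Ob, chr17:34238808-34238862, plus strand: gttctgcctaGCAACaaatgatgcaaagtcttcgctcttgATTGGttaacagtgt
H2-Eb1, chr17:34305766-34305822, plus strand: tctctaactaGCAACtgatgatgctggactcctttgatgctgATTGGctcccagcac
H2-Eb2, chr17:34325533-34325589, plus strand: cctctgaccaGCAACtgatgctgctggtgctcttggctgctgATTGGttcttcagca

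The distance from the first base of the X core to that of the Y core was 33 bases in H2-Aa and H2-Oa, 32 in H2-Eb1 and H2-Eb2, and 30 in H2-Ob. The X core began 81, 76, 87, 91 and 132 bases before the annotated start of H2-Aa, H2-Oa, H2-Ob, H2-Eb1 and H2-Eb2. H2-DMb2 and H2-DMb1 held the Y core alone, 90 and 61 bases before the start. Of the 2 promoters listed for H2-DMa, 1 held neither core and the other a Y core 198 bases before the start. H2-Aa alone among these promoters also held TGACG, the half-site of cyclic AMP response elements, between its cores, and 20.8% of all promoters held TGACG on either strand. The whole promoter of H2-Oa, the member with the largest difference below, is printed with the same capitals.
H2-Oa, chr17:34092129-34092428, plus strand: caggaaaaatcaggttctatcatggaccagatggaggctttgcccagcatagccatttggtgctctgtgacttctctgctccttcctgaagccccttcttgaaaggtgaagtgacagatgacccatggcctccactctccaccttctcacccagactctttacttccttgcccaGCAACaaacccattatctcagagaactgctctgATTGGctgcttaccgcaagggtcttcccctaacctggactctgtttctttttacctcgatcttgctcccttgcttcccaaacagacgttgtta

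**Figure D1:**
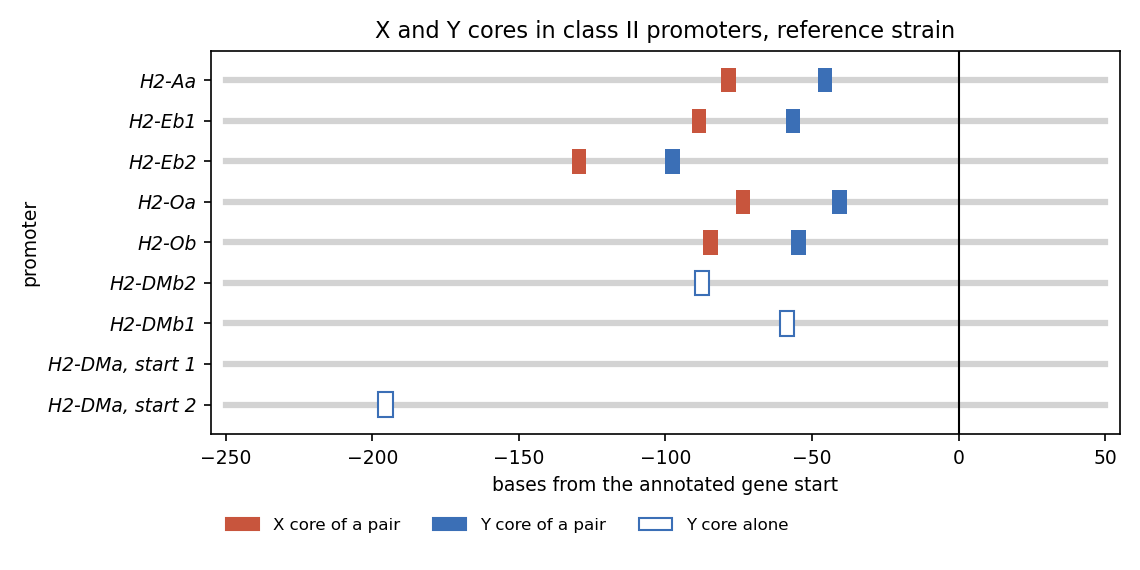
Positions of the X and Y cores, in bases from the annotated start, in the promoters of class II genes in the reference strain. Filled boxes mark the 5 promoters with both cores 30 to 33 bases apart, and open boxes mark a Y core alone.

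Signals are on a log2 scale, where a difference of 1 is a doubling. Array medians ran from 6.86 to 7.14. Control mouse 3 stood apart in its Y-linked genes. Kdm5d stood at 4.77 there against 8.05 to 9.06 in the other mice, and Eif2s3y at 4.23 against 9.87 to 10.27. Some of the results are also given without this mouse. The stem and progenitor genes Kit and Cd34 were at 7.83 to 8.46 and 8.89 to 10.25, and the B cell receptor component Cd79a at 12.69 to 13.49, so B cell transcripts were measured in the selected cells of every mouse. Ly6a, which encodes Sca-1, was not analysed here.

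All 5 measured class II genes had lower means after ABT-737, and none passed the test across all genes (limma with Benjamini-Hochberg adjustment, threshold 0.05). That count stands beside 55.3% of all genes with a lower treated mean and 0.0% (0 of 14860) with an adjusted p under 0.05. The median difference of the 5 was -0.27, against -0.02 for all genes. At an unadjusted p under 0.05, 1 member was lower, H2-Oa, and 0 were higher, where 4.45% of all genes were lower and 5.75% higher. In bulk samples such as these, fewer cells of a type and less RNA per cell cannot be told apart.

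The chains that form the peptide groove of I-A, the class II molecule present on FVB/N cells, had lower treated means with intervals that include 0. H2-Aa, the alpha chain, stood at 12.96, 12.99 and 13.15 in the controls and at 12.94, 13.02 and 12.68 in treated mice 1, 2 and 3. Treated mouse 3 was low, treated mouse 1 lay just under the lowest control and treated mouse 2 lay among the controls. The difference was -0.15 (SE 0.13, 95% confidence interval -0.46 to 0.15; adjusted p = 0.763 by limma). H2-Ab1, the beta chain, stood at 11.85, 11.79 and 12.14 in the controls and at 11.74, 11.85 and 11.38 in the treated mice. Treated mouse 2 lay among the controls here too, and treated mouse 3 was again the lowest. Its difference was -0.27 (SE 0.16, interval -0.66 to 0.12; adjusted p = 0.648 by limma).

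Cd74, the invariant chain that chaperones both of them, showed the smallest difference of the 5. It stood at 13.37, 13.35 and 13.57 in the controls and at 13.41, 13.43 and 13.14 in the treated mice. Treated mice 1 and 2 lay within the control range and treated mouse 3 below it. The difference was -0.10 (SE 0.13, interval -0.41 to 0.20; adjusted p = 0.852 by limma).

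H2-DMa, the alpha chain of the peptide editor, stood at 11.83, 11.71 and 12.00 in the controls and at 11.77, 11.73 and 11.07 in the treated mice. Treated mice 1 and 2 lay within the control range, and treated mouse 3 stood at -0.78 relative to the control mean. Over the groups the difference was -0.32 (SE 0.20, interval -0.80 to 0.16; adjusted p = 0.662 by limma), and without treated mouse 3 it was -0.10.

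H2-Oa, the alpha chain of the inhibitor H2-O, had the largest difference and a different pattern over the mice. It stood at 11.03, 10.67 and 10.79 in the controls and at 10.68, 9.62 and 9.55 in treated mice 1, 2 and 3. Treated mice 2 and 3 lay more than 1 log2 unit below every control, and treated mouse 1 lay within the control range, so the groups overlapped. The means were 10.83 ± 0.18 and 9.95 ± 0.63 (SD, n = 3 mice each), a difference of -0.88 (SE 0.30, interval -1.58 to -0.18) or 1.84-fold lower, with an unadjusted p of 0.0210 and an adjusted p of 0.405 by limma. Without treated mouse 1 the difference was -1.25 with an adjusted p of 0.00757 by limma, in a fit that called 510 genes. Without control mouse 1, treated mouse 2 or treated mouse 3 the unadjusted p was 0.0703, 0.0637 and 0.0806 by limma. Without control mouse 2 or control mouse 3 the difference was -0.96 and -0.90, with an unadjusted p of 0.0388 and 0.0418 by limma.

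**Figure D2:**
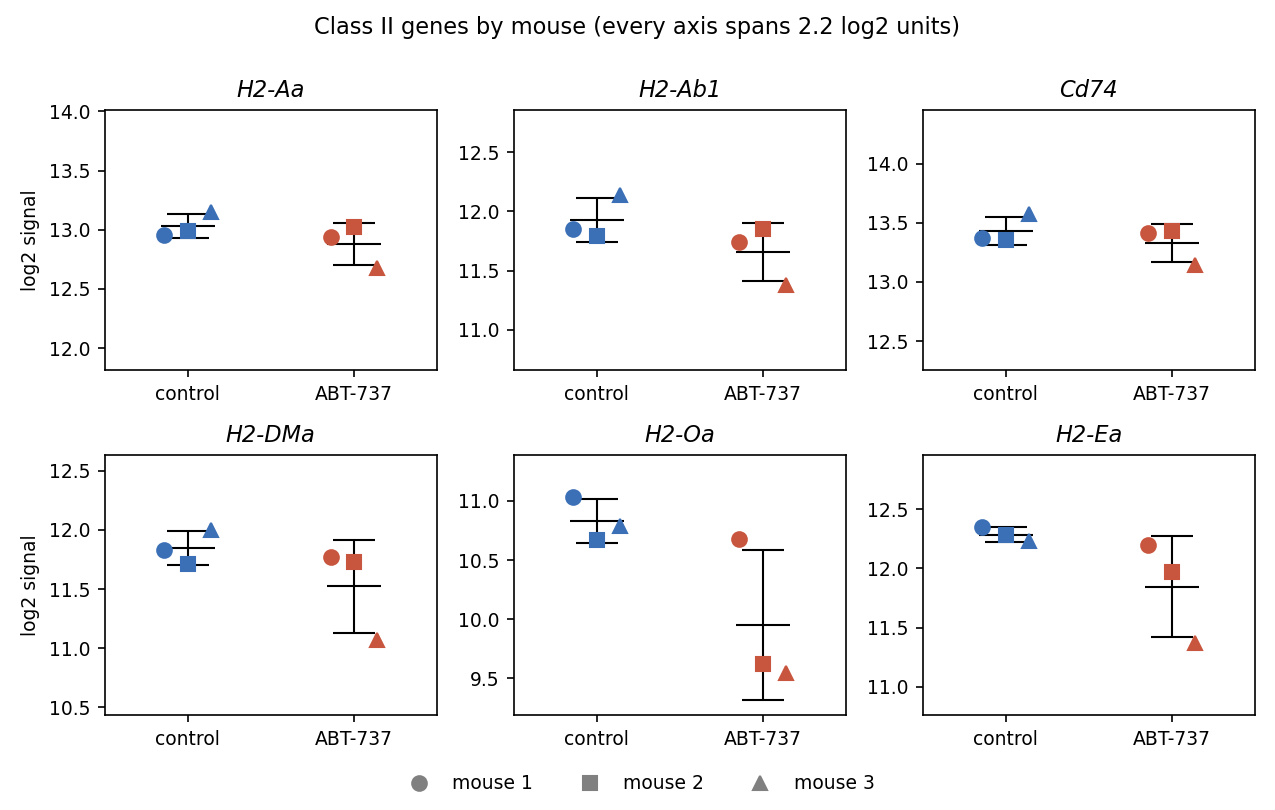
Log2 signal of the 5 measured class II genes and of H2-Ea in each mouse, with black bars for the mean and SD of 3 mice. Treated mouse 3 is the lowest of the 6 mice in every panel, and in H2-Oa treated mouse 2 lies beside it, at 9.62 and 9.55.

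Treated mouse 3 held the lowest of the 6 values for all 5 genes. The same was true of 14.3% of all genes. Relative to the control mean its values were -0.35 for H2-Aa, -0.55 for H2-Ab1, -0.29 for Cd74, -0.78 for H2-DMa and -1.28 for H2-Oa. The mean of the 5 genes, relative to the controls, was -0.11 in treated mouse 1, -0.28 in treated mouse 2 and -0.65 in treated mouse 3. Without treated mouse 3 the median difference of the 5 was -0.10 and without control mouse 3 it was -0.16, and all 5 differences kept their sign in both cases.

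H2-Oa was picked out after its large difference was seen in these arrays, so its contrast with other genes is a description. The contrast took the within-array difference between H2-Oa and the mean of H2-Aa, H2-Ab1, Cd74 and H2-DMa. Relative to the control mean, that difference was 0.26, -0.06 and -0.20 in the controls. In treated mice 1, 2 and 3 it was -0.06, -1.16 and -0.79. Treated mouse 1 lay among the controls and the other treated mice below them. The groups differed by -0.67, with an exact permutation p of 0.3 (two-sided; groups of 3 and 3 cannot give less than 0.1). With H2-Oa so chosen and the p so bounded, the contrast cannot decide whether H2-Oa differed more than the other 4. Set against H2-DMa alone, the partner that H2-O restrains, H2-Oa differed by -0.56 (exact permutation p = 0.2), with the same limits.

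Ciita and the entries shared between relatives were examined beside the 5. Ciita, the co-activator on which class II transcription depends, stood at 9.90, 9.55 and 10.54 in the controls and at 9.95, 10.06 and 9.28 in the treated mice. The controls spread over almost 1 log2 unit and held treated mice 1 and 2 within their range, and treated mouse 3 lay below them. The difference was -0.23 (SE 0.30, interval -0.93 to 0.47; adjusted p = 0.853 by limma), and it turned to 0.01 without treated mouse 3 and to 0.04 without control mouse 3. H2-Ea, the alpha chain of the second class II molecule I-E, was measured by an entry of its own. Mice of the haplotype that FVB/N carries are known to display no I-E at the cell surface. It stood at 12.35, 12.28 and 12.23 in the controls and at 12.20, 11.97 and 11.37 in the treated mice. All treated mice lay below all controls, as in 7.19% of all genes. The difference was -0.44 (SE 0.21, interval -0.93 to 0.05; adjusted p = 0.537 by limma), and without treated mouse 3 it was -0.20.

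The entry shared by H2-Eb1 and H2-Eb2, beta chains of the E type, stood at 11.14, 11.04 and 11.24 in the controls and at 11.05, 10.79 and 9.91 in the treated mice. The entry shared by H2-DMb2 and H2-DMb1, beta chains of the peptide editor, stood at 11.30, 11.12 and 11.37 in the controls and at 11.23, 10.57 and 10.46 in the treated mice. Treated mouse 1 lay within the controls in both, and treated mouse 3 was the lowest. Their differences were -0.56 (SE 0.29) and -0.51 (SE 0.22), with adjusted p of 0.669 and 0.606 by limma over all 23332 table entries, and neither can be assigned to 1 gene.

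**Figure D3:**
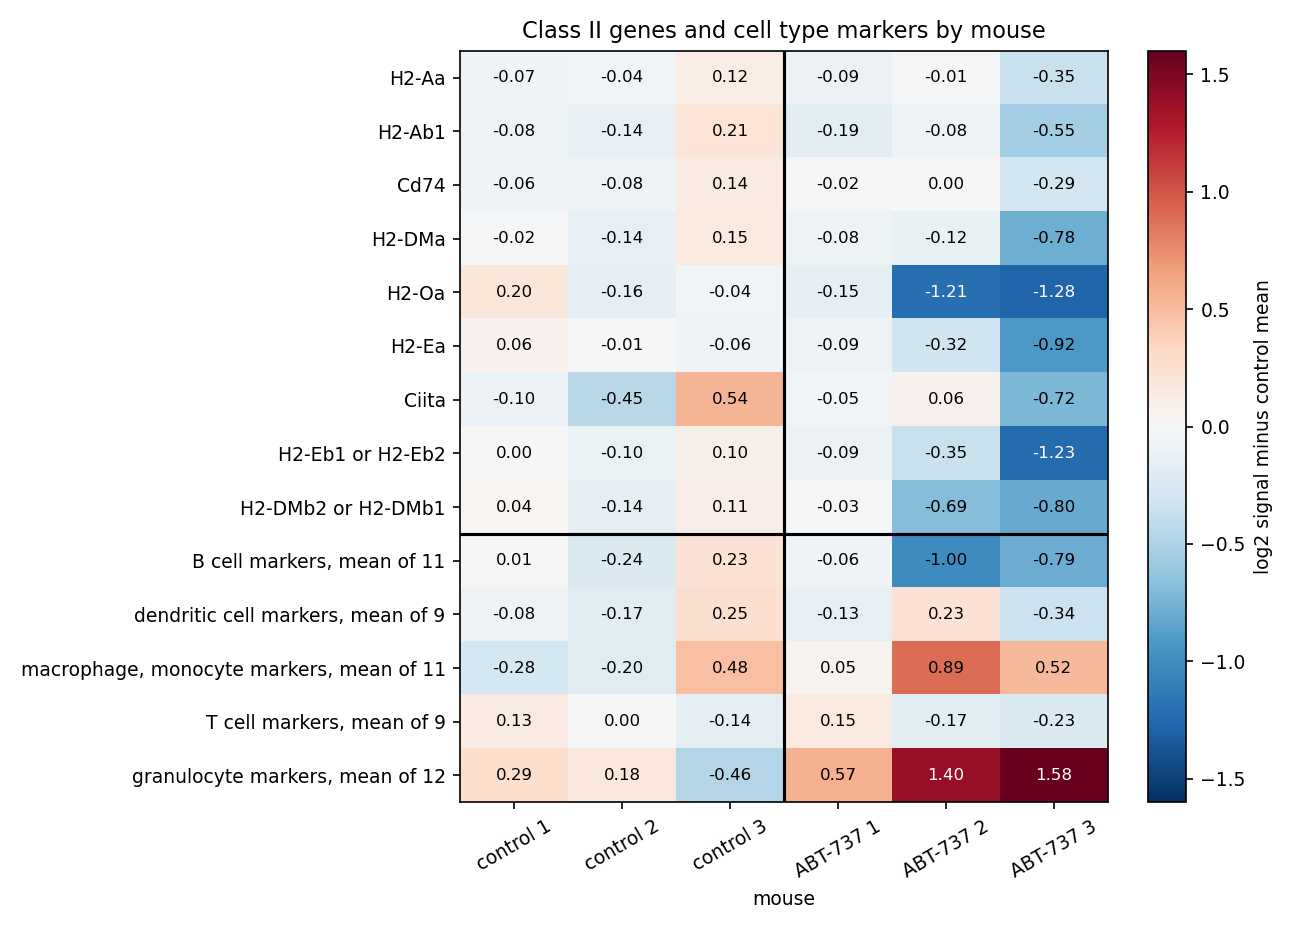
Log2 signal minus the control mean in each mouse, for class II genes and shared entries above the black line and for the mean of each marker list below it. Treated mouse 2 is low in H2-Oa (-1.21), in the entry of H2-DMb2 or H2-DMb1 (-0.69) and in B cell markers (-1.00), while its H2-Aa, Cd74 and Ciita values are near 0.

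The mean of the B cell markers was low in the same treated mice as H2-Oa. Of 14 listed, 11 were measured, and all 11 had lower treated means, where 55.3% of all genes did. Their median difference was -0.57. It was -0.92 without treated mouse 1, -0.44 without treated mouse 2 (10 of 11 lower) and -0.42 without treated mouse 3. Leaving out control mouse 3 gave -0.465. With all mice, 4 were lower at an unadjusted p under 0.05, where 4.45% of all genes were. The adjusted threshold was passed by 0, the smallest adjusted p being 0.283 by limma. Fcrla differed by -0.84 (SE 0.19), Cd72, a co-receptor that dampens B cell receptor signals, by -0.77 (SE 0.23) and Ms4a1, which encodes CD20, by -0.76 (SE 0.22). Pou2af1 and Cd79a differed least, by -0.16 (SE 0.20) and -0.23 (SE 0.21). In treated mouse 3 Pou2af1 stood at 12.19, above the controls at 11.90 to 12.16. The mean log2 signal of the list ran from 11.39 to 11.86 in the controls and from 10.63 to 11.57 in the treated mice. Relative to the controls it was -0.06 in treated mouse 1, -1.00 in treated mouse 2 and -0.79 in treated mouse 3. H2-Oa had -0.15, -1.21 and -1.28 in the same mice, and the 4 other members together had -0.09, -0.05 and -0.49. In treated mouse 2, then, H2-Aa, H2-Ab1, Cd74 and H2-DMa lay within the control range while the B cell markers were at -1.00. H2-Oa minus the B cell marker mean differed between the groups by -0.26 (exact permutation p = 0.3), a contrast also chosen after seeing the data. The part of B cell RNA in the class II differences was not tested.

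**Figure D4:**
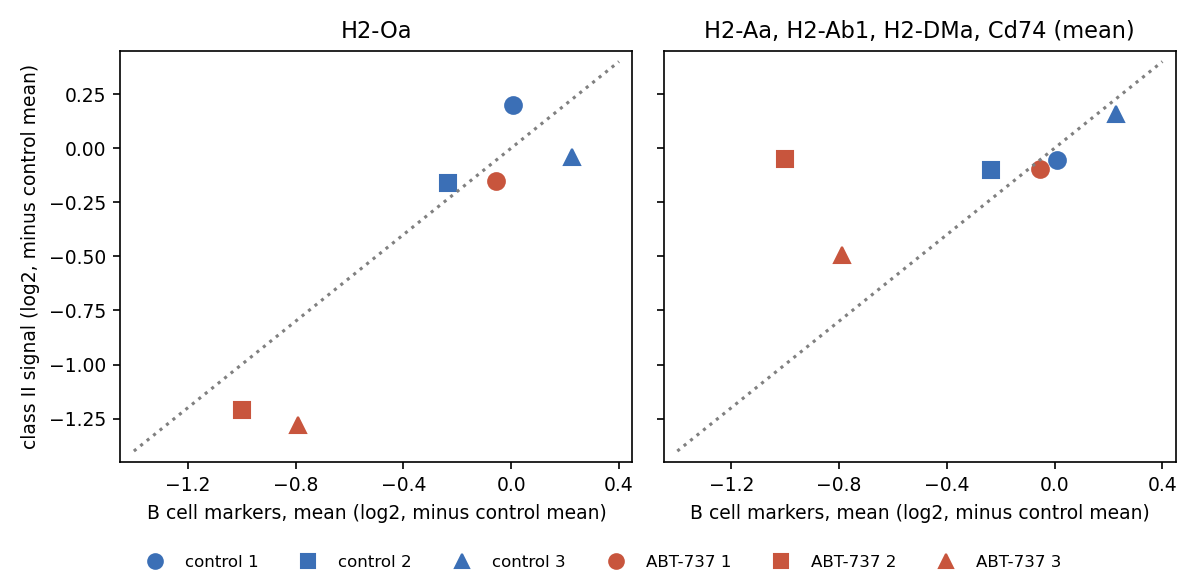
H2-Oa (left) and the mean of the 4 other measured members (right) against the mean of 11 B cell markers, each as log2 signal minus the control mean, with a point for each of 6 mice and a dotted line of equality. Treated mice 2 and 3 lie at -1.21 and -1.28 for H2-Oa, and at -0.05 and -0.49 for the other members.

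Other cells that carry class II showed mixed values. Among dendritic cell markers 9 of 12 were measured, with 3 higher and 6 lower and a median of -0.09. That median had no stable sign, being 0.30 without control mouse 3 and 0.14 without treated mouse 3, with 4 of 9 lower in both cases. Flt3, a growth factor receptor of their precursors, differed by -0.72 (SE 0.25), with overlapping groups, and was lower at an unadjusted p of 0.0252 (adjusted p = 0.418 by limma). Clec9a, a receptor of cross-presenting dendritic cells, had low signals of 4.82 to 6.31, and treated mouse 2 was the highest. The list's mean log2 signal ran from 7.89 to 8.31 in the controls and from 7.73 to 8.30 in the treated mice. Macrophage and monocyte markers were higher in 10 of 11, where 6531 of 14860 genes were, and differed by 0.43 at the median. Array weights lowered this to 0.20, with 3 of 11 lower. Dropping treated mouse 2 gave 0.27, and dropping control mouse 3 gave 0.70. Of these markers 2 were higher and 1 lower at an unadjusted p under 0.05, where 5.75% and 4.45% of all genes were. The adjusted threshold was passed by 0, the smallest adjusted p being 0.318 by limma. Their mean log2 signal spanned 9.65 to 10.41 in the controls and 9.98 to 10.82 in the treated mice. Cd14, a co-receptor for lipopolysaccharide, differed by 1.26 (SE 0.30), and the single lower marker was Ly86, which encodes MD-1, at -0.42 (SE 0.17). In treated mice 1, 2 and 3 the mean of the list stood at 0.05, 0.89 and 0.52 relative to the controls. Single markers varied in this. Mertk, C1qa and C1qc were highest in treated mouse 3, Ly86 in control mouse 3 and the other markers in treated mouse 2. T cell markers, 9 of 12 measured, had a median of -0.13 (-0.02 without treated mouse 3, -0.24 without treated mouse 1). Granulocyte markers, 12 of 12 measured, had 9 higher and 3 lower, with a median of 1.28. At an unadjusted p under 0.05, 8 were higher, where 5.75% of all genes were, and 0 passed the adjusted threshold. The 3 lower were Mpo (-0.51), Elane (-0.32) and Prtn3 (-0.55). The part of these cells in the class II values was not tested.

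Regulators of class II transcription were all measured, 12 of 12. Of these 9 were lower, 2 higher and 1 equal, with a median of -0.18, where 55.3% of all genes were lower. The count of lower genes was 7 without control mouse 1 or treated mouse 1. It was 10 without control mouse 2 or treated mouse 3. Leaving out control mouse 1 gave a median of -0.11, control mouse 2 one of -0.31 and treated mouse 2 one of -0.28. At an unadjusted p under 0.05, 2 were lower and 0 higher, where 4.45% and 5.75% of all genes were. Nfyc, a subunit of the NF-Y factor that binds the Y box printed above, stood at 8.19, 8.24 and 8.09 in the controls and at 7.72, 7.47 and 6.65 in the treated mice, a difference of -0.89 (SE 0.26, adjusted p = 0.361 by limma) with no overlap. The other NF-Y subunits Nfya and Nfyb differed by -0.33 (SE 0.21) and -0.06 (SE 0.25). Irf8, a factor of dendritic cells, monocytes and B cells, stood at 11.45, 11.38 and 11.76 in the controls and at 10.99, 11.22 and 10.17 in the treated mice, a difference of -0.74 (SE 0.27, adjusted p = 0.434 by limma). Its groups did not overlap either, and treated mouse 3 was the lowest, as for the class II genes. All treated mice lay below all controls in 7.19% of all genes. The RFX subunits that bind the X box differed by -0.25 for Rfx5 (SE 0.21), -0.03 for Rfxap (SE 0.12) and 0.00 for Rfxank (SE 0.18). The 2 higher were Spi1, which encodes PU.1, at 0.49 (SE 0.23) with overlapping groups, and Prdm1 at 0.14 (SE 0.17). Pax5 differed by -0.65 (SE 0.33), at 0.18, -1.18 and -0.93 relative to the controls in treated mice 1, 2 and 3. The counts do not separate genes that raise class II from genes that lower it.

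Genes of the interferon-gamma input, which induces Ciita in many cells, were divided in direction. Of 10 listed, 9 were measured, 5 higher and 4 lower, with a median of 0.05 (-0.04 after centring of the arrays). Without 1 mouse the median ran from -0.10 (treated mouse 2) to 0.16 (treated mouse 1). At an unadjusted p under 0.05, 2 were higher, where 5.75% of all genes were. Ifng, the cytokine, stood at 8.61, 8.78 and 8.46 in the controls and at 9.30, 8.92 and 9.99 in the treated mice, a difference of 0.79 (SE 0.26, adjusted p = 0.404 by limma). The groups did not overlap, and the highest value was in treated mouse 3. In that mouse 5 of the 9 measured genes of this list had the lowest of their 6 values, where 14.3% of all genes did. The share of all genes with every treated mouse above every control was not computed. A link between Ifng and the class II values was not tested. Irf1, a factor induced by interferon-gamma, differed by 0.40 (SE 0.17, adjusted p = 0.479 by limma), with overlapping groups.

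Of 10 endosomal genes that act on class II cargo, 8 had higher treated means, where 6531 of 14860 genes did, with a median of 0.18. The size of that median rested on single mice: it was 0.04, with 4 of 10 lower, without treated mouse 2 and 0.35 without control mouse 3, and array weights gave 0.05, also with 4 lower. Only Ctsd, a lysosomal aspartic protease, was higher at an unadjusted p under 0.05. It stood at 11.54, 11.50 and 11.56 in the controls and at 11.88, 12.47 and 12.59 in the treated mice, a difference of 0.78 (SE 0.19, adjusted p = 0.318 by limma). Ctss, the protease that removes the invariant chain in B cells and dendritic cells, differed by 0.19 (SE 0.29). Ifi30, the reductase GILT that opens disulphide bonds of antigens, differed by -0.19 (SE 0.13). Ctsl, which has the role of Ctss in thymic epithelium, differed by 0.60 (SE 0.26) and had overlapping groups.

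Of 7 genes that govern class II turnover and its surface neighbours, 2 were higher and 1 lower at an unadjusted p under 0.05. Of all genes, 5.75% were higher and 4.45% lower at that p. The median of the 7 was 0.06 (-0.03 after centring of the arrays). It was -0.03 without control mouse 1 or control mouse 2 and 0.20 without control mouse 3. Cd83, which protects class II from ubiquitination, stood at 11.34, 11.25 and 10.71 in the controls and at 10.48, 9.59 and 9.65 in the treated mice, a difference of -1.19 (SE 0.28, adjusted p = 0.292 by limma). Marchf8, a ubiquitin ligase for class II, differed by 0.79 (SE 0.31, adjusted p = 0.460 by limma), with overlapping groups. It stood at 6.55, 6.02 and 6.52 in the controls and at 6.43, 7.48 and 7.55 in treated mice 1, 2 and 3. Its relative Marchf1, the ligase of B cells and dendritic cells, differed by 0.06 (SE 0.17). Cd9, a tetraspanin found with class II on the cell surface and also on platelets, differed by 1.25 (SE 0.27, adjusted p = 0.281 by limma).

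Costimulatory and partner molecules showed no member at an unadjusted p under 0.05, with 5 of 10 higher and a median of -0.06. Leaving out control mouse 3 turned it to 0.06 and leaving out treated mouse 3 to 0.01, while centring of the arrays gave -0.15, with 8 of 10 lower. Cd86, a ligand of CD28, differed by -0.67 (SE 0.44) with controls between 9.55 and 10.84, and Cd80, its relative, by 0.05 (SE 0.17). Lag3, a T cell receptor for class II, differed by -0.28 (SE 0.12, adjusted p = 0.498 by limma), and Cd4, the helper T cell co-receptor that binds class II, by -0.19 (SE 0.16). MHC class I presentation, measured in 11 of 14 genes, had 9 lower and 2 higher, where 55.3% of all genes were lower. The median was -0.17 (-0.08 without treated mouse 1 or treated mouse 3, -0.27 without treated mouse 2). At an unadjusted p under 0.05 there were 0. B2m, the shared light chain of class I, differed by -0.01 (SE 0.10), Tapbp, the peptide loader tapasin, by 0.26 (SE 0.12) and the immunoproteasome subunit Psmb10 by -0.60 (SE 0.31).

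**Figure D5:**
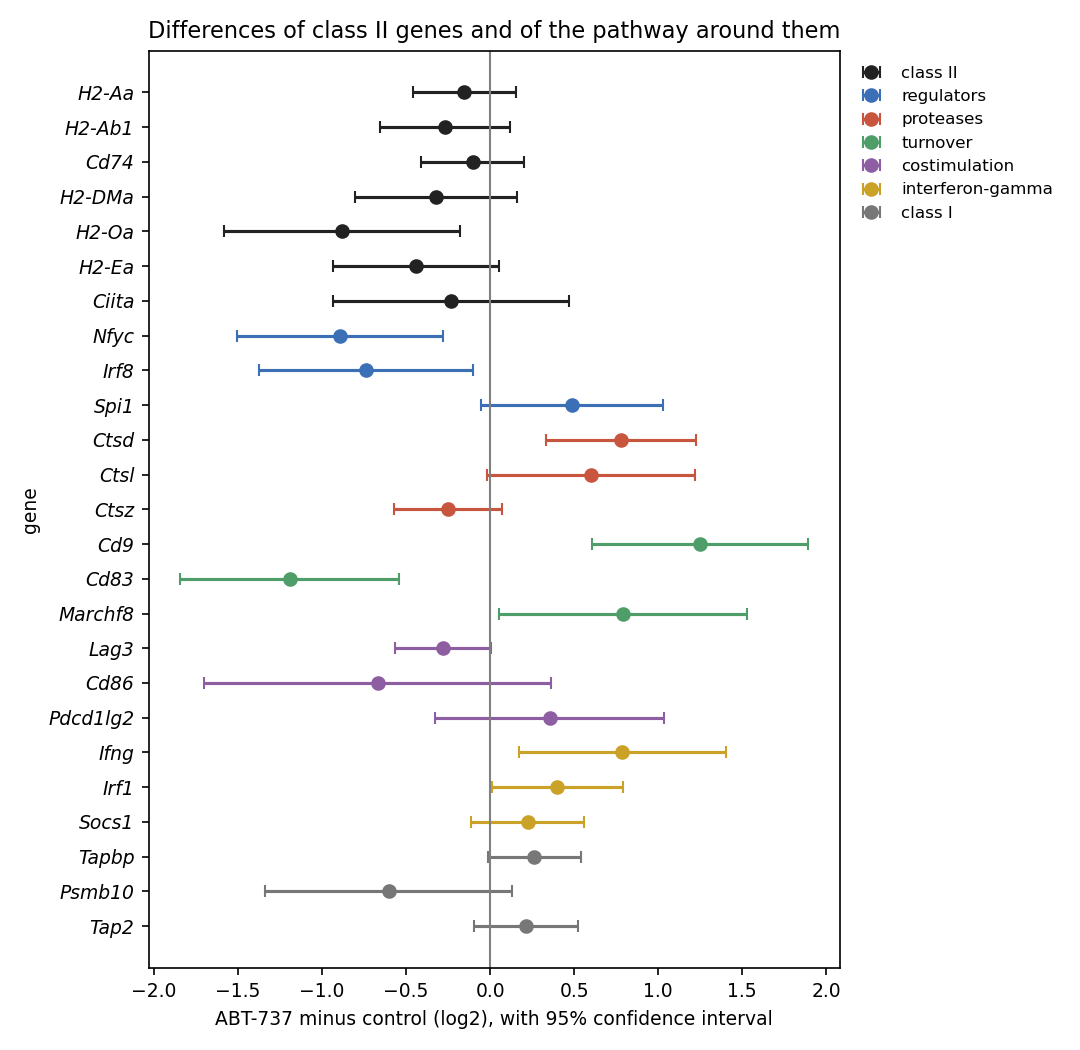
Treated minus control difference in log2 signal with its 95% confidence interval by limma, for class II genes and for the 3 members of smallest p in each list around them. The H2-Oa interval runs from -1.58 to -0.18, and those of the 6 other class II genes include 0.

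Genes with a pattern like that of the class II members were sought over the 6 mice. Likeness was the root mean square difference between a gene's signals and the mean of the 5 members, each centred on its own mean, among 3690 genes outside the lists that were bright and variable enough. The 8 closest were Klhdc1, Dmac2, Fubp1, Mfng, Bcl7a, Zbtb1, Tardbp and Srsf10, at 0.05 to 0.08 log2 units, where the median of the genes ranked was 0.45. Mfng, which encodes a glycosyltransferase that modifies Notch, stood at 9.53, 9.22 and 9.57 in the controls and at 9.39, 9.16 and 8.79 in the treated mice. Being chosen to match that mean, these genes also had their lowest value in treated mouse 3, and 16 genes lay under 0.1. The members themselves lay at 0.09 for H2-DMa, 0.11 for H2-Ab1, 0.14 for H2-Aa, 0.15 for Cd74 and 0.39 for H2-Oa. H2-Oa thus lay farthest from the mean of the 5, although it is part of that mean. The measure is not scaled, so this distance holds the size of its variation as well as its pattern. Its SD over the mice was 0.637, against 0.268 for that mean.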

How the data were processed

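Per the labels' protocols, total RNA was biotinylated for exon arrays. The deposited log2 values run from 2.6 to 14.3, a scale inferred from that range, and the submitters' processing notes name build mm9. How the authors normalized, summarised or filtered them was not in the sources used here. The number of arrays limits the precision, and probe sequences were not set against the H2 haplotype of FVB/N, so levels of these genes are compared between mice only.

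The platform annotation gave 1 gene symbol to 14996 of 23332 entries, several to 1019 and none to 7317. Of the first, 14941 matched a GRCm38.p6 gene table by Entrez number, which changed 0 symbols. The entry with the highest mean stood for each gene with several, leaving 14860 genes. Groups came from the treatment labels, with mice numbered in accession order, so nothing pairs them.

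Differences were fitted over all genes with lmFit and eBayes of limma 3.58.1 (R 4.3.3), Benjamini-Hochberg adjustment was used, and the fit was tested on simulated data. Lists are described by counts and medians. Named genes were all members, up to 3 of smallest p in each list plus members whose role is needed to read it, and 8 by likeness (mean signal at or above the 25th percentile, and SD over mice at or above that of the members' mean). Members and lists were chosen with earlier results of these data known. The promoter motifs, the Ciita entry, the shared entries and the contrasts of H2-Oa with other genes were added after seeing the data. Figures were drawn with matplotlib 3.10.9.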

Additional observations from a re-analysis of the deposited data

How the results depend on the processing

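All 5 measured class II genes had a lower treated mean under every alternative run: quantile normalization, centring on array medians, leaving out the dimmest 30% of genes, array weights, trended or robust variance, averaged entries, added entries named by synonyms, and leaving out each mouse. Leaving out a mouse moved their median difference between -0.37 and -0.10. Calls over all genes were 14 without the dimmest 30%, 2 with array weights, and 0 to 510 when a mouse was left out (510 without treated mouse 1, 1 without treated mouse 3). The number of members lower at an unadjusted p under 0.05 was 0 to 1 when a mouse was left out. The H2-Oa contrast with the other 4 members ran from -0.97 to -0.42 when a mouse was left out and kept its sign under the other alternatives. Ciita ran from -0.457 to 0.0383 when a mouse was left out and changed sign without control mouse 3 (0.0383) and without treated mouse 3 (0.0083). B cell markers lower at an unadjusted p under 0.05 numbered 7 after centring or with array weights, 8 without treated mouse 1 and 2 without treated mouse 3. Centring turned the split of all genes at that p from 662 lower and 854 higher to 1314 and 618, and quantile normalization to 1218 and 956. The causes were not tested. No paired analysis was possible because the mouse numbers in the labels are not shared between the groups.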
